A study of Mus musculus with 18 samples.

Results

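The D cyclins (*Ccnd1*, *Ccnd2*, *Ccnd3*), their kinases (*Cdk4*, *Cdk6*), the inhibitors of these kinases (*Cdkn2c*, *Cdkn2d*, *Cdkn1a*, *Cdkn1b*) and *Rb1* were followed in thymocyte progenitors of adult and fetal mice. Every probe set annotated to 1 of these 10 genes alone was taken, which gave 22 of the 22626 probe sets on the array, and no probe set was shared between one of them and another gene. All mice were C57BL/6 and carried no allele or treatment named in the labels. The adult groups came from females aged 4 to 6 weeks. The fetal groups came from E14.5 embryos according to the labels, whereas the study's methods name a later day. At each age 3 populations were sorted: the early thymic progenitors (ETP, lineage negative CD44+CD25-c-Kit+), the DN2 cells (CD44+CD25+) and the DN3 cells (CD44-CD25+). Each of the 6 groups had 3 arrays, 18 in all. The RNA on one array was pooled from several sorts, more of them for adult than for fetal cells. The labels call the arrays biological replicates and the methods technical ones, so the p-values below describe only the scatter of these arrays, and that scatter may be technical.

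A cell enters S phase when D cyclins, bound to CDK4 or CDK6, phosphorylate the retinoblastoma protein Rb, which then releases E2F factors that switch on cyclin E, cyclin A and the replication genes. The INK4 inhibitors p18 (*Cdkn2c*) and p19 (*Cdkn2d*) bind the kinases CDK4 and CDK6 themselves, whereas the CIP/KIP inhibitors p21 (*Cdkn1a*) and p27 (*Cdkn1b*) bind complexes of cyclins and kinases, and p21 is a target of p53. In the thymus D3 is the cyclin on which the expansion after the pre-T cell receptor checkpoint depends most, and p18 and p27 restrain thymocyte division.

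Promoter windows from RefSeq (build GRCm38.p6) were found for 7 of the 10 genes, 10 windows in all, and 3 of them are shown because these genes cover the range of behaviour on the arrays: *Cdk4* hardly differed between groups, *Cdkn1a* differed between the ages in opposite directions at ETP and DN3, and *Cdkn2c* had the widest gap between adult and fetal cells. Each is the 250 bases before the outermost annotated start, 5′ to 3′ on the strand of the gene, with the motif named after it in capitals.
Cdk4, chr10:127063285-127063534, plus strand, CACGTG (E box): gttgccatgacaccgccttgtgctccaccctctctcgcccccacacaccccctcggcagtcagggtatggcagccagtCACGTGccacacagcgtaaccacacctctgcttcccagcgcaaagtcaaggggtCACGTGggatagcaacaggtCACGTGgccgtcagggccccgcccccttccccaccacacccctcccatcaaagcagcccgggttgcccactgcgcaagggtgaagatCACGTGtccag
Cdkn1a, chr17:29090729-29090978, plus strand, p53 motif: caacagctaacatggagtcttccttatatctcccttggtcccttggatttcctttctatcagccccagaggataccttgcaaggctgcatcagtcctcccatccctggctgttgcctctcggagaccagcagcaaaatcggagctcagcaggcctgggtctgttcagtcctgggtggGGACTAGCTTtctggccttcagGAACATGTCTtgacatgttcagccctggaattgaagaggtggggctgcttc
Cdkn2c, chr4:109666757-109667006, minus strand, GGGCGG (GC box): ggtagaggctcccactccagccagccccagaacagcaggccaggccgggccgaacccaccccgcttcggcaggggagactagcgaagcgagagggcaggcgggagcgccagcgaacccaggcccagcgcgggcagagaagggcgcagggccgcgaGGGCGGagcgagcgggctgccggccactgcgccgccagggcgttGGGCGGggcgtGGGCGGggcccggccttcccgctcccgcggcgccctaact

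The *Cdk4* window held 4 copies of CACGTG, the E box that MYC and MAX bind, a motif present in 6.02% of 32851 promoter windows of the same length. The *Cdkn1a* window held 2 matches to the p53 motif (one of the paired 10-letter elements that p53 binds), found in 7.13% of the windows, and the *Cdkn2c* window held 3 copies of GGGCGG, found in 32.7%. At a second annotated start further inside the gene, the *Cdkn1a* window held 0 p53 matches and 2 copies of GGGCGG. The second *Cdkn2c* window held 0 copies of GGGCGG. All motifs were searched on both strands, and matches of one motif could overlap those of another. The E2F motifs TTTCCCGC and TTTGGCGC were in 0 of the 10 windows of these genes and in 1.3% of all windows. A match describes these letters and was not tested as a binding site.

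The deposited values are log2 intensities centred on the median of each probe set over the 18 arrays. A value of 2 therefore means 4 times the median array of that probe set, and no value tells how strongly a gene was expressed, so genes are compared below only by how they changed. A probe set is called in a comparison when limma's p, adjusted over all 22626 probe sets, was under 0.05 with a difference of at least 1.8-fold. It is called regulated when the F test over the 6 groups and the widest gap between group means passed the same limits. Differences are given with the standard error from limma and rest on 3 arrays against 3. Because each array holds RNA from a whole sorted population, fewer cells with a transcript cannot be told apart from less transcript per cell.

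Of the 22 probe sets 12 were regulated over the 6 groups, against 16.8% of all probe sets. They measured *Ccnd1* (all 3 probe sets), *Ccnd2* (2 of 7), *Ccnd3*, *Cdk6*, *Cdkn1a* (both), *Cdkn2c*, *Cdkn2d* and *Rb1*, while *Cdk4* and *Cdkn1b* had none. Between fetal and adult ETP 5 of the 22 were called, 4 higher and 1 lower in fetal cells, against 8.49% of all probe sets. In DN2 1 was called, lower in fetal cells, against 3.44%. In DN3 5 were called and all 5 were lower in fetal cells, where 2.77% of all probe sets were called and 1.16% were called lower. Both probe sets of *Cdkn1a* were among the called in ETP and in DN3, so these counts are of probe sets and not of genes. The median difference of the 22 probe sets in DN3 was -0.56 log2, against 0.02 log2 over all probe sets. *Ccnd2* supplied 7 of the 22 probe sets behind this median.

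Within adult cells the step from ETP to DN2 held 11 calls among the 22 (5 up and 6 down), against 6.07% of all probe sets. The calls down at this step were all of *Ccnd1* or *Ccnd2*. From adult DN2 to DN3 limma called 0, against 0.928% (1 probe set was called without replicate 1 or without replicate 2 of adult DN2, of *Cdk6* and of *Cdkn1a*), and 6 of the 22 had an unadjusted p under 0.05. Over the whole adult course from ETP to DN3 9 were called (6 up and 3 down), against 10.8%. In fetal cells 3 were called from ETP to DN2, all down and all of *Ccnd1*, against 0.972%, 3 from DN2 to DN3 (1 up and 2 down), against 2.47%, and 4 from ETP to DN3 (1 up and 3 down), against 5.45%. No called difference between 2 groups had overlapping arrays. Comparisons that share a group share its arrays, so their counts are not independent. Neither are the calls of several probe sets of one gene, and those down from ETP to DN3 were all of *Ccnd1* at both ages. The fetal minus adult difference itself changed between ETP and DN2 for 3 of the 22, against 0.796% of all probe sets, between DN2 and DN3 for 2, against 0.548%, and between ETP and DN3 for 3, against 2.49%.

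**Figure D1:**
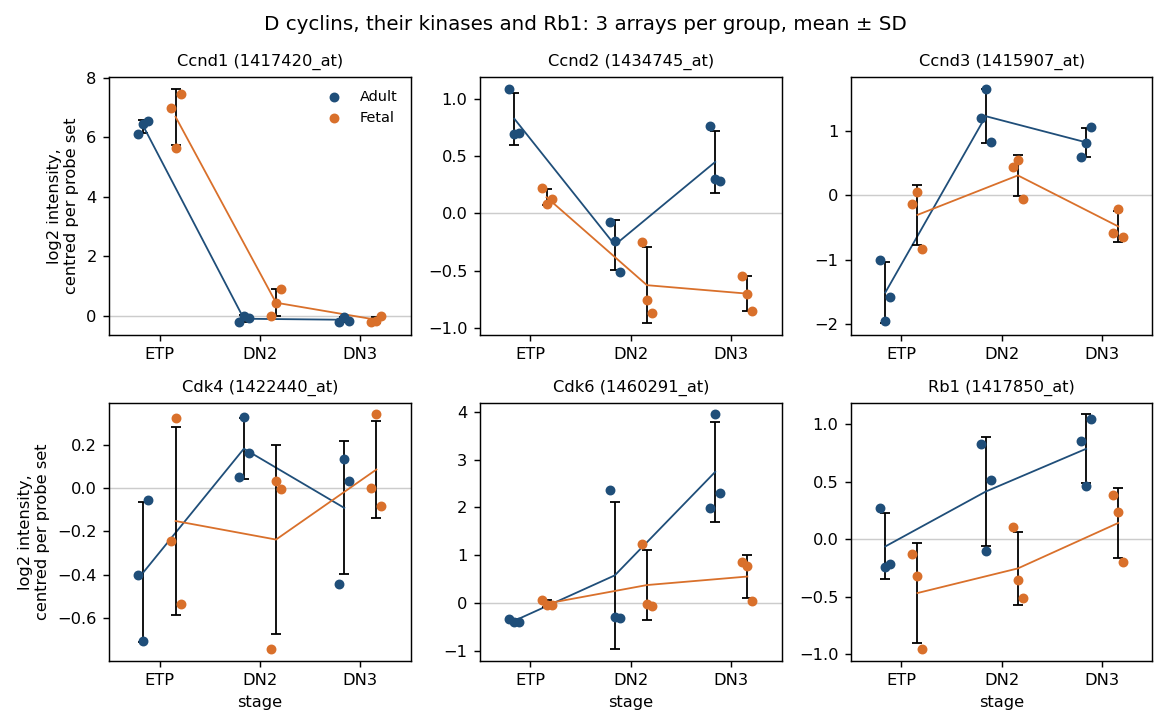
Centred log2 intensity (vertical axis) of 1 probe set each for *Ccnd1*, *Ccnd2*, *Ccnd3*, *Cdk4*, *Cdk6* and *Rb1* at the stages ETP, DN2 and DN3 (horizontal axis), where points are the 3 arrays of a group, lines join group means, bars are ± 1 SD, and blue is adult and orange fetal. *Ccnd1* dropped from 5.63 to 7.45 in the 6 ETP arrays to at most 0.90 in every later array, *Ccnd3* rose 2.73 log2 from adult ETP to DN2, and the widest gap between group means of *Cdk4* was 0.57 log2.

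*Ccnd1*, which encodes cyclin D1, was high in ETP of both ages and lower in DN2 and DN3. In probe set 1417420_at the adult ETP arrays stood at 6.12, 6.44 and 6.54 log2 and the fetal ETP arrays at 6.99, 5.63 and 7.45 log2. The 12 arrays of DN2 and DN3 lay between -0.22 and 0.90 log2, far below every ETP array. The fall from ETP to DN2 was -6.46 ± 0.35 log2 in adult cells (87.9-fold, adjusted p = 9.6e-08) and -6.24 ± 0.35 log2 in fetal cells (75.6-fold, adjusted p = 3.54e-07). The other probe sets fell less far: 1448698_at changed by -5.48 ± 0.31 log2 in the adult and -4.72 ± 0.31 log2 in the fetal thymus, and 1417419_at by -3.79 ± 0.27 and -3.98 ± 0.27 log2. All 3 gave the same order of groups at ETP against later stages and correlated with each other at r = 0.965 to 0.984 over the 18 arrays. In 1448698_at the SD was 0.62 and 0.73 log2 in adult and fetal ETP, but 0.0038 to 0.0285 log2 in the later groups. Whether the DN2 and DN3 arrays were above background cannot be read from centred values, so a floor may limit these folds. The standard error pools the scatter of all 6 groups, which here differed between stages.

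Adult and fetal ETP did not differ in a called way in *Ccnd1*. Fetal minus adult was 0.32 log2 in 1417420_at (95% interval -0.43 to 1.07), 0.37 log2 in 1417419_at (-0.22 to 0.96) and -0.73 log2 in 1448698_at (-1.39 to -0.06, adjusted p = 0.137), so the probe sets did not share a direction. From DN2 to DN3 no probe set of *Ccnd1* was called at either age. The probe sets of other genes most like 1417420_at over the 18 arrays were those of *Plxnc1* (Pearson r = 0.987), *Gcnt2* (0.983) and *Csf1r* (0.981), the last of which encodes the receptor for macrophage colony-stimulating factor.

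Some markers of other cell types were also high in the ETP groups. The mean of the 10 myeloid markers was 3.22 to 4.01 log2 in adult ETP, 1.56 to 1.78 log2 in fetal ETP and at most 0.72 log2 elsewhere. From ETP to DN3 7 of the 10 were called lower in adult cells, where 12.9% of all genes were called in either direction. In fetal cells 4 of the 10 were called lower, against 6.38%. The other 3 in adult cells were *Itgam*, *Lyz1* and *Cd14*, called in none of the 4 differences between ETP and a later stage, and cells with CD11b, the product of *Itgam*, had been depleted before the sort. That of the 5 measured dendritic markers was 4.32 to 5.41 log2 in adult ETP, 1.33 to 1.48 log2 in fetal ETP and at most 0.63 log2 elsewhere. From ETP to DN2 4 of the 5 were called lower in adult cells, where 7.46% of all genes were called in either direction. In fetal cells 2 of the 5, *Itgax* and *Flt3*, were called lower, against 1.23%. The 4 measured natural killer markers averaged 1.49 to 1.76 log2 in adult ETP and 1.29 to 2.04 log2 in fetal ETP, means carried by *Klrd1* (5.28 to 7.63 log2 in the ETP arrays), which was the only one of the 4 called from ETP to DN2 at either age. The defining marker *Ncr1* lay between -0.08 and 0.06 log2 on all 18 arrays. Whether *Ncr1*, *Itgam*, *Lyz1* and *Cd14* were above background cannot be read from centred values, so their lack of change does not show absence. The paper places *Flt3*, listed here as a dendritic marker, among genes of early progenitors or stem cells. Whether other cells were in the ETP sorts, and their part in the *Ccnd1* values, was not tested.

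*Ccnd2*, the gene of cyclin D2, moved in a narrower range, and its 7 probe sets did not follow one course. Their pairwise correlations over the 18 arrays ran from 0.059 to 0.902, and the regulated ones were 1434745_at (widest gap between group means 1.52 log2) and 1455956_x_at (1.58 log2), the latter a design that may cross-hybridize. In 1434745_at adult ETP stood at 1.09, 0.69 and 0.70 log2, adult DN2 at -0.08, -0.24 and -0.51 log2, and adult DN3 at 0.76, 0.30 and 0.28 log2. Fetal ETP stood at 0.22, 0.08 and 0.13 log2, fetal DN2 at -0.25, -0.76 and -0.87 log2, and fetal DN3 at -0.55, -0.70 and -0.85 log2. The adult DN2 arrays lay below all adult ETP and DN3 arrays, and the fetal DN2 and DN3 arrays below all fetal ETP arrays. The adult difference from DN2 to DN3 (0.72 log2, adjusted p = 0.0783), the fetal one from ETP to DN2 (-0.77 log2, adjusted p = 0.0766) and the change of the age difference from DN2 to DN3 (-0.80 ± 0.26 log2, adjusted p = 0.358) were not called.

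From adult ETP to DN2 1434745_at fell by 1.10 ± 0.18 log2 (adjusted p = 0.00193) and 1455956_x_at fell by 1.21 ± 0.24 log2 (adjusted p = 0.00744). Both calls were lost when the arrays of those groups were fitted alone (adjusted p = 0.064 and 0.22). Probe set 1448229_s_at fell by 1.22 ± 0.34 log2 (adjusted p = 0.0466) but was not called under 21 of 26 alternatives, the replicate block among them (adjusted p = 0.0581). In DN3 fetal minus adult was -1.15 ± 0.18 log2 for 1434745_at (adjusted p = 0.00199), a call made under every alternative run, and the other 6 probe sets, at -0.9998 to -0.36 log2, were not called. In ETP the fetal difference of 1434745_at was -0.68 ± 0.18 log2 (adjusted p = 0.0273), under the 1.8-fold limit.

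**Figure D2:**
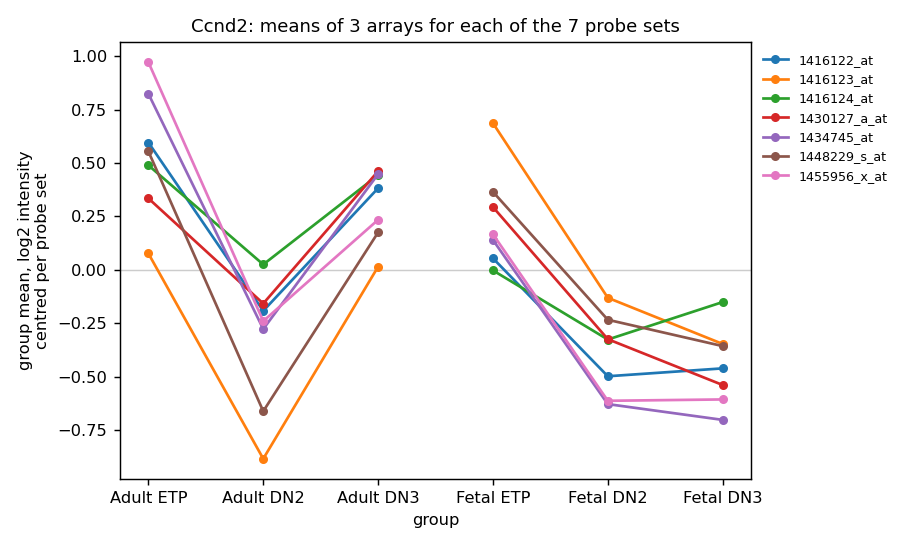
Group means of 3 arrays (vertical axis, centred log2 intensity) for each of the 7 probe sets of *Ccnd2* (coloured lines) in the 6 groups (horizontal axis). The means were lower in adult DN2 than in adult ETP for all 7, from -0.46 log2 in 1416124_at to -1.22 log2 in 1448229_s_at, with 3 of these differences called.

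*Ccnd3*, which encodes cyclin D3, took the opposite course to *Ccnd1* in adult cells. Its only probe set, 1415907_at, stood at -1.003, -1.94 and -1.58 log2 in adult ETP, at 1.20, 1.65 and 0.82 log2 in adult DN2 and at 0.60, 0.81 and 1.05 log2 in adult DN3. In fetal cells it stood at -0.13, 0.05 and -0.84 log2 in ETP, at 0.44, 0.54 and -0.05 log2 in DN2 and at -0.58, -0.22 and -0.65 log2 in DN3. Every adult ETP array was below every other array, and the 3 fetal groups lay between the adult extremes.

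*Ccnd3* rose by 2.73 ± 0.29 log2 from adult ETP to DN2 (6.65-fold, adjusted p = 6.12e-05) and stood 2.33 ± 0.29 log2 above adult ETP in adult DN3 (adjusted p = 0.000131). The corresponding fetal differences were 0.61 ± 0.29 log2 (adjusted p = 0.951) and -0.18 ± 0.29 log2 (adjusted p = 0.727). Fetal minus adult was 1.20 ± 0.29 log2 in ETP (adjusted p = 0.0182) and -1.30 ± 0.29 log2 in DN3 (adjusted p = 0.0265), so that fetal cells were higher at the first stage and lower at the last. Both of these calls were lost without some single arrays, with limma's adjusted p up to 0.0787 in ETP and 0.114 in DN3, and the ETP call also with the ETP arrays alone (0.137). The change of the fetal minus adult difference from ETP to DN3 was itself called (-2.51 ± 0.41 log2, adjusted p = 0.00425) under every alternative run.

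*Cdk4* and *Cdk6*, the kinases that D cyclins activate, gave different pictures. No probe set of *Cdk4* was called in any comparison. The 3 of them spanned 0.28, 0.57 and 0.37 log2 between the highest and lowest group means (limma F test, adjusted p = 0.762, 0.459 and 0.472). All *Cdk4* values lay between -0.74 and 0.44 log2. In 1422440_at the arrays did not overlap between adult ETP and adult DN2 (0.57 log2, adjusted p = 0.258) or between adult and fetal DN2 (-0.42 log2, adjusted p = 0.573), nor did they in 1422441_x_at between adult and fetal DN2 (-0.37 log2, adjusted p = 0.466). The 95% intervals of the 9 differences reached at most 1.13 log2, in 1422440_at from adult ETP to DN2. The probe sets correlated at 0.728 to 0.837 over the 18 arrays.

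*Cdk6* was highest in adult DN3. Probe set 1460291_at stood at 1.99, 3.94 and 2.30 log2 in adult DN3 and at -0.33, -0.40 and -0.40 log2 in adult ETP. In adult DN2 1 array stood at 2.35 log2, within the range of DN3, and the others at -0.30 and -0.32 log2. Fetal ETP lay between -0.05 and 0.06 log2, fetal DN2 stood at 1.22, -0.03 and -0.07 log2, and fetal DN3 at 0.85, 0.77 and 0.03 log2. Replicate 1 was the high array in both DN2 groups. The rise from adult ETP to adult DN3, 3.12 ± 0.66 log2 (8.68-fold, adjusted p = 0.00623), was called under every alternative run.

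The step of *Cdk6* from adult DN2 to DN3, 2.17 ± 0.66 log2, was not called (adjusted p = 0.161). Without replicate 1 of adult DN2 it was 3.06 ± 0.51 log2 and called (limma adjusted p = 0.0114). Fetal minus adult DN3 was -2.19 ± 0.66 log2, with arrays that did not overlap, and was not called either (adjusted p = 0.125), but was called without that same adult DN2 array (adjusted p = 0.0191). By the F test over the 6 groups *Cdk6* was no longer regulated without any one of 13 of the 18 arrays, nor by the methods' one-way test after adjustment. In the same adult DN2 replicate 1 *Ptcra*, the pre-T cell receptor alpha chain, stood at -0.34 log2, against -0.39 and -1.85 log2 in the other adult DN2 arrays and 3.19 to 4.63 log2 in adult DN3. *Cd44* stood there at -0.97 log2, against -0.03 and 0.44 log2 in the other adult DN2 arrays. *Kit*, called lower in DN3 than in ETP at each age, stood there at 0.003 log2, against -0.59 and -1.33 log2. In fetal DN2 replicate 1 *Ptcra* stood at 2.72 log2, against 0.34 and 0.925 log2 in the other fetal DN2 arrays. *Cd44* stood there at -0.43 log2, against 0.17 and 0.03 log2, and *Kit* at 0.26 log2, against 0.25 and -1.17 log2. The part of cell stage in the *Cdk6* values was not tested. In adult DN3 replicate 3 *Cd44*, a marker lost at this stage, stood at -0.86 log2, against -7.97 and -7.84 log2 in the other arrays, and *Cdk6* rose by 3.34 log2 from adult ETP without that array. Most similar to *Cdk6* over the 18 arrays were *Ulk1* (r = 0.916), *H2-Q2* (0.912) and *Crebzf* (0.903).

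**Figure D3:**
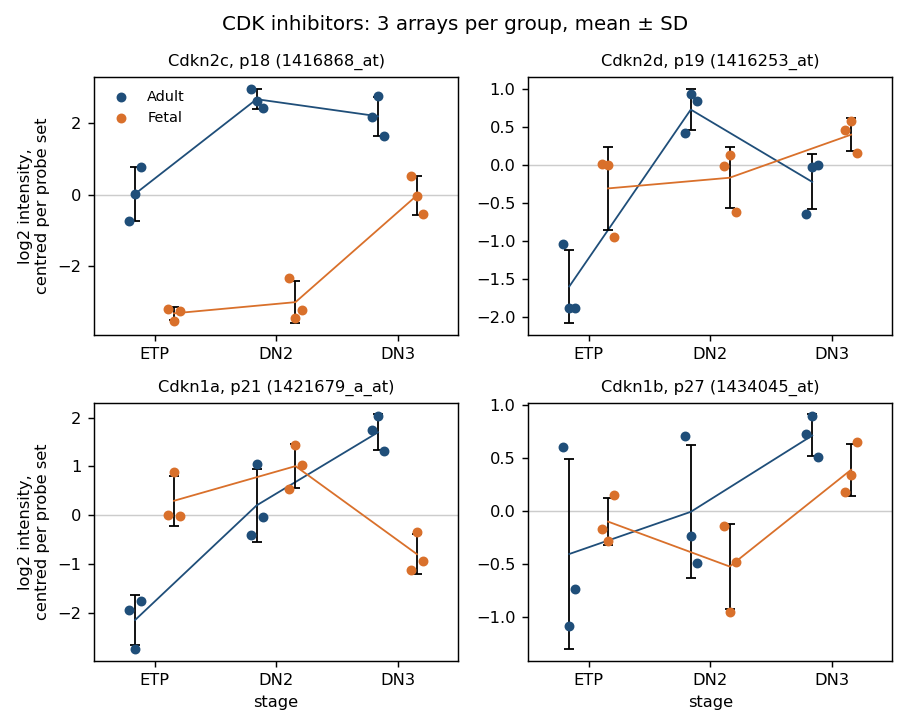
Centred log2 intensity (vertical axis) of 1 probe set each for *Cdkn2c*, *Cdkn2d*, *Cdkn1a* and *Cdkn1b* at ETP, DN2 and DN3 (horizontal axis), where points are the 3 arrays of a group, lines join group means, bars are ± 1 SD, and blue is adult and orange fetal. Fetal *Cdkn2c* stayed between -3.52 and -2.34 log2 in ETP and DN2, below every adult array, and *Cdkn1a* rose from adult ETP to DN3 while fetal DN3 lay below fetal DN2.

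Among the INK4 inhibitors *Cdkn2c* (p18) separated the ages at every stage. In 1416868_at fetal ETP stood at -3.18, -3.52 and -3.24 log2 and adult ETP at -0.72, 0.04 and 0.77 log2. Fetal DN2 stood at -2.34, -3.44 and -3.22 log2 and adult DN2 at 2.97, 2.62 and 2.43 log2. Fetal DN3 stood at 0.54, -0.04 and -0.54 log2 and adult DN3 at 2.19, 2.75 and 1.65 log2. At each stage all fetal arrays lay below all adult arrays, and fetal DN3 reached the values of adult ETP.

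Fetal minus adult was -3.34 ± 0.41 log2 in ETP (10.1-fold, adjusted p = 0.000182), -5.67 ± 0.41 log2 in DN2 (50.9-fold, adjusted p = 2.56e-06) and -2.21 ± 0.41 log2 in DN3 (4.62-fold, adjusted p = 0.00689). The first pair was called under every alternative run, and the DN3 call was lost when only the DN3 arrays were fitted (adjusted p = 0.0725). The adult rise below was likewise not called with the adult ETP and DN2 arrays alone (adjusted p = 0.0676). *Cdkn2c* rose at different steps: in adult cells from ETP to DN2, by 2.64 ± 0.41 log2 (adjusted p = 0.00117), and in fetal cells from DN2 to DN3, by 2.98 ± 0.41 log2 (adjusted p = 0.000831). The other steps were 0.31 ± 0.41 log2 from fetal ETP to DN2 and -0.48 ± 0.41 log2 from adult DN2 to DN3, neither called. The change of the fetal minus adult difference from DN2 to DN3 was 3.46 ± 0.57 log2 (adjusted p = 0.013), which narrowed it, and that from ETP to DN2 was not called (-2.33 ± 0.57 log2, adjusted p = 0.107). Whether the fetal ETP and DN2 arrays were above background cannot be read from centred values. The probe sets nearest to *Cdkn2c* over the 18 arrays were those of *Lancl1* (r = 0.954), *Pcnx* (0.95) and *Clec2i* (0.936).

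*Cdkn2d* (p19) changed mainly in adult cells. Probe set 1416253_at stood at -1.04, -1.88 and -1.88 log2 in adult ETP, at 0.42, 0.94 and 0.84 log2 in adult DN2 and between -0.64 and -0.0042 log2 in adult DN3. The 9 fetal arrays lay between -0.94 and 0.58 log2, all above the adult ETP arrays. It rose by 2.33 ± 0.31 log2 from adult ETP to DN2 (5.03-fold, adjusted p = 0.000402), against 0.14 ± 0.31 log2 in fetal cells (adjusted p = 0.953). In ETP it was 1.29 ± 0.31 log2 higher in fetal than in adult cells (adjusted p = 0.018), a call lost without some single arrays (adjusted p up to 0.0793) and with the ETP arrays alone (0.142). Between adult and fetal ETP the 2 INK4 genes thus differed in opposite directions.

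*Cdkn1a* (p21), the CIP/KIP gene with a promoter window shown above, was higher in fetal than in adult ETP and lower in fetal than in adult DN3. In 1421679_a_at adult ETP stood at -1.93, -2.73 and -1.76 log2, adult DN2 at -0.40, 1.04 and -0.03 log2, and adult DN3 at 1.75, 2.03 and 1.31 log2. Fetal ETP stood at 0.0084, 0.89 and -0.0084 log2, fetal DN2 at 0.54, 1.44 and 1.04 log2, and fetal DN3 at -1.12, -0.34 and -0.93 log2. Adult arrays were lowest in ETP and highest in DN3, and fetal arrays were lowest in DN3. The second probe set, 1424638_at, correlated with it at 0.956 and gave the same called directions.

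Adult *Cdkn1a* was 3.84 ± 0.41 log2 higher in DN3 than in ETP (14.3-fold, adjusted p = 3.06e-05) in 1421679_a_at and 3.70 ± 0.35 log2 in 1424638_at (13-fold, adjusted p = 1.21e-05). The fetal difference from DN2 to DN3 was -1.803 ± 0.41 log2 (adjusted p = 0.0298) and -1.62 ± 0.35 log2 (adjusted p = 0.0243). Each of these fetal calls was lost under 5 of 26 alternatives, which left out 1 fetal DN2 or DN3 array or fitted these groups alone. Fetal cells were higher than adult cells in ETP, by 2.44 ± 0.41 log2 (adjusted p = 0.00178) and 2.62 ± 0.35 log2 (adjusted p = 0.000403). They were lower in DN3, where the difference was -2.50 ± 0.41 log2 (adjusted p = 0.00262) and -2.13 ± 0.35 log2 (adjusted p = 0.00308).

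The change of that age difference from ETP to DN3, -4.94 ± 0.57 and -4.74 ± 0.50 log2, was called for both probe sets (adjusted p = 0.000253 and 1e-04) under every alternative run. In DN2 the ages differed by 0.80 ± 0.41 and 0.26 ± 0.35 log2 and were not called (adjusted p = 0.417 and 0.654). The genes most like 1421679_a_at over the 18 arrays were *Emid1* (r = 0.934), *Slc35a4* (0.841) and *Tbl3* (0.834).

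**Figure D4:**
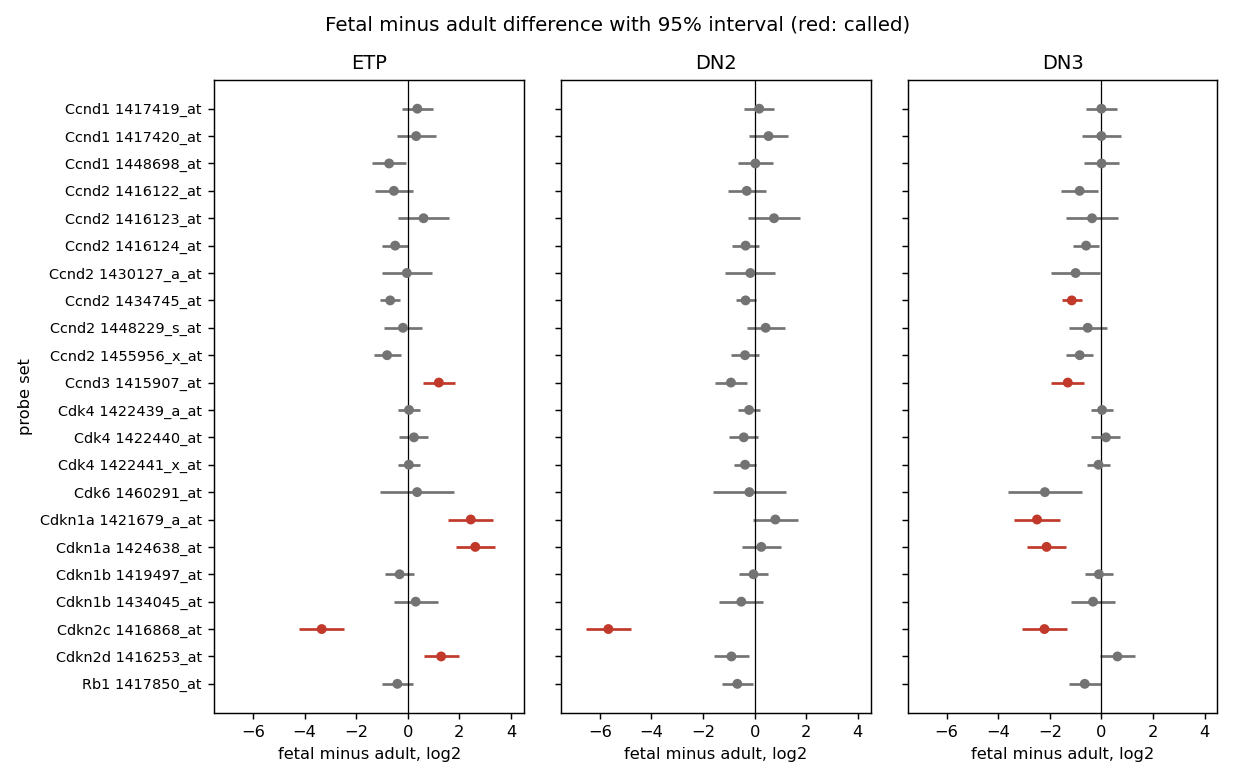
Fetal minus adult difference in log2 (horizontal axis) of each of the 22 probe sets (vertical axis) in ETP, DN2 and DN3, where points are differences of means of 3 arrays, bars are 95% intervals from limma, and red marks called differences. Both probe sets of *Cdkn1a* lay above 0 in ETP (2.44 and 2.62) and below 0 in DN3 (-2.50 and -2.13), and *Cdkn2c* lay below 0 at all 3 stages.

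*Cdkn1b* (p27) was not called in any comparison. Its 2 probe sets did not move together (r = -0.29 over the 18 arrays). In 1419497_at the group means spanned 0.43 log2. In 1434045_at they spanned 1.23 log2, from -0.53 log2 in fetal DN2 to 0.71 log2 in adult DN3, with arrays in adult ETP from -1.09 to 0.60 log2. That spread within 1 group was wider than the gap between groups. Among the 9 comparisons within a stage or an age, the largest difference of 1434045_at was that from adult ETP to DN3, 1.12 ± 0.39 log2 (adjusted p = 0.0878).

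*Rb1*, the substrate of these kinases, passed the F test over the 6 groups (adjusted p = 0.0431) with a span of 1.26 log2 between fetal ETP and adult DN3. Probe set 1417850_at stood at 0.86, 0.46 and 1.05 log2 in adult DN3, from -0.24 to 0.27 log2 in adult ETP, from -0.95 to -0.13 log2 in fetal ETP and from -0.20 to 0.39 log2 in fetal DN3. Adult DN3 exceeded adult ETP by 0.85 ± 0.28 log2 without a call (adjusted p = 0.0692). In none of the 9 comparisons within a stage or an age was *Rb1* called, and its place among the regulated probe sets was lost by the one-way test of the methods after adjustment and without any one of 11 of the 18 arrays. With the replicate number as a block the difference between adult DN3 and adult ETP was called.

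Ordered by group mean, the regulated inhibitors and cyclins had different extremes. *Cdkn2c* and *Ccnd3* were highest in adult DN2 and adult DN3, with no called difference between these groups (adjusted p = 0.845 and 0.751). *Ccnd3*, *Cdkn2d* and *Cdkn1a* were lowest in adult ETP, and in each the next group was called higher: fetal DN3 for *Ccnd3* (adjusted p = 0.0268) and for *Cdkn1a* in 1421679_a_at (0.0351), and fetal ETP for *Cdkn2d* (0.018). *Cdkn2c* was lowest in fetal ETP, with no called difference from fetal DN2 (adjusted p = 0.951). For *Cdk6* no difference between neighbours in the order was called.

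Of 56 further genes of the pathway 48 were measured, 1 probe set each. From adult ETP to DN2, where *Ccnd3* rose, 13 of the 48 were called higher and 1 lower, where 7.46% of 12393 genes were called in either direction. Their median difference was 0.57 log2, against 0.01 log2 over all genes. The same number, 13 higher and 1 lower, was called from adult ETP to DN3 (12.9% of genes called), and 0 from adult DN2 to DN3 (1.09%). In fetal cells 0 were called higher and 1 lower from ETP to DN2, 1 and 1 from DN2 to DN3, and 3 and 2 from ETP to DN3, where 1.23%, 2.96% and 6.38% of genes were called in either direction.

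In the E and A cyclin group, 4 of 13 rose from adult ETP to DN2. They were *Ccna2* (cyclin A2, 2.09 ± 0.25 log2, adjusted p = 0.000165), *Ccne1* (cyclin E1, 1.801 ± 0.39 log2, adjusted p = 0.0113), *Cdk1* (the mitotic kinase, 1.51 ± 0.27 log2) and *Cks1b* (a CDK subunit that helps degrade p27, 1.20 ± 0.32 log2). Of 9 pocket protein and E2F genes 2 rose: *Rbl1*, the Rb relative p107, by 1.66 ± 0.30 log2 and *Tfdp1*, a partner of E2F, by 1.12 ± 0.20 log2. Of 13 S phase and mitosis genes 6 rose, *Rrm1* and *Rrm2*, the subunits of ribonucleotide reductase, by 2.42 ± 0.41 and 2.29 ± 0.25 log2. Of 4 upstream genes, *Il7r*, the receptor for interleukin 7, rose by 2.70 ± 0.33 log2 and *Mycn* fell by 1.64 ± 0.39 log2. With the probe sets of each gene averaged, *Cks1b* (0.62 log2, adjusted p = 0.0603) and *Mycn* (-0.56 log2, under the 1.8-fold limit) were not called. None of 3 other inhibitors and 6 genes of the p53 group was called at this step.

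Fetal ETP exceeded adult ETP in 12 of the 48 genes and was lower in 1, where 10.2% of genes were called. *Ccne1* (2.46 ± 0.39 log2), *Cks1b* (1.86 ± 0.32 log2), *Ccna2* (1.68 ± 0.25 log2) and *Tfdp1* (1.35 ± 0.20 log2) were higher in fetal ETP, as were *Rrm1* (2.34 ± 0.41 log2) and *E2f5* (3.05 ± 0.54 log2), an E2F that represses. Adult ETP was thus low in *Ccnd3*, in *Cdkn2d* and *Cdkn1a*, and in these E2F-linked genes other than *E2f5*. From adult ETP to DN2 *E2f5* was not called (-0.18 ± 0.54 log2, adjusted p = 0.957). In DN2 *E2f5* was called higher and *Ccndbp1* and *Trp53inp1* lower in fetal cells (4.06% of genes called in either direction), and in DN3 *Mycn* was called lower (3.28%), though not when its probe sets were averaged (-0.51 log2, adjusted p = 0.0663).

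The p53 group did not follow *Cdkn1a* as a whole. In fetal against adult ETP, where *Cdkn1a* was higher in fetal cells, *Ccng1* was 1.79 ± 0.38 log2 higher (adjusted p = 0.00805), a call lost when its 3 probe sets were averaged (0.60 ± 0.23 log2, adjusted p = 0.0984), and *Trp53inp1* was lower, the difference being -2.10 ± 0.28 log2 (adjusted p = 0.000411). *Mdm2* (-0.997 log2), *Gadd45a* (-1.63 log2) and *Btg2* (-1.94 log2) were not called. From fetal DN2 to DN3, where *Cdkn1a* fell, *Trp53inp1* rose by 1.94 ± 0.28 log2 (adjusted p = 0.00149). With its 2 probe sets averaged *Btg2* was also called higher at this step (2.82 ± 0.63 log2, adjusted p = 0.0208). From fetal ETP to DN3 *Btg2* (3.46 log2, adjusted p = 0.0333) and *Trp53inp1* (1.755 log2, adjusted p = 0.00142) were called higher. From adult ETP to DN3 *Ccng1* rose by 1.70 ± 0.38 log2 (adjusted p = 0.0084) along with *Cdkn1a*, again not when averaged (0.47 ± 0.23 log2, adjusted p = 0.22), and the other 5 measured genes of the group were not called. With averaging *Trp53inp1* (1.08 log2, adjusted p = 0.0151) and *Sesn1* (-0.92 log2, adjusted p = 0.00655) were called at this step, and *Btg2* was called lower in fetal ETP (-2.16 log2, adjusted p = 0.0368).

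*Mycn*, the N-Myc gene that is one upstream input to D cyclins, differed from ETP to DN3 by -4.24 ± 0.39 log2 in fetal cells (adjusted p = 1.15e-05) and by -2.62 ± 0.39 log2 in adult cells (adjusted p = 0.000522). *Notch1* and *Myc* were not called in any of the 9 comparisons. The other inhibitors *Cdkn1c*, *Cdkn2a* and *Cdkn2b* were not called in any comparison, and their list mean lay between -0.13 and 0.14 log2 on all arrays. Whether these 3 were above background cannot be read from centred values, so the lack of a call does not show steady expression.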

How the data were processed

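RNA was hybridized to Affymetrix mouse arrays. GCRMA, named without a version in the submitters' processing notes, gave the log2 values that the authors deposited, in which each probe set is centred on its median. That the base is 2 was read from the values: the widest span is 12.95, which a natural logarithm would push past the range of a scanner. All columns could be assigned (0 columns not mapped). Annotation of the platform gives 1 gene for 20380 probe sets, several for 691 and none for 1555.

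All 18 arrays entered one model in limma 3.58.1 (R 4.3.3), with 1 mean per group and no trend, with Benjamini-Hochberg adjustment over 22626 probe sets in each comparison. The prior had 0.971 degrees of freedom. The fold limit of 1.8 is that of the study's methods, and the script was tested on simulated data. Centred values hold no level, so the study's filter on low intensity was left out and all probe sets were tested. For other genes 1 probe set was taken, preferring names that mark no cross-hybridization, then the largest SD. Members and lists were chosen with earlier results of these data known. Named are all members, the 3 genes most correlated with each of the 4 members of widest span, and some of the called pathway genes. These pathway genes were not chosen by size alone, and *Plk1* (1.945 log2 from adult ETP to DN2) was left out while smaller calls were named. *Mdm2*, *Gadd45a*, *Btg2* and *Sesn1* were named beyond this, after their values were seen, as were *Notch1*, *Myc* and the uncalled inhibitors.

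Of the marker lists the stage markers followed the labels by group, with 4 of 6 called higher and 2 lower in DN3 than in ETP at each age. Of all genes 12.9% were called in adult and 6.38% in fetal cells. The erythroid and B lineage lists had 0 genes called in limma's 9 comparisons. Adult DN3 replicate 3, however, stood within the adult DN2 range in *Cd44*, *Kit* and the myeloid *Mpo*. There *Kit* stood at -0.003 log2 (others -2.58 and -2.09) and *Mpo* at 0.10 log2 (others -5.7 and -6.1). Its *Ptcra* (3.19 log2) and *Rag1* (2.06 log2) stood above every adult DN2 array. Within adult DN3 *Cdkn2c* and both probe sets of *Cdkn1a* were lowest on that array, and the part of cell stage in them was not tested. Embryonic globin (*Hbb-y*) reached 2.35 to 5.97 log2 on the fetal arrays numbered 2 and 3, against -0.07 to 0.04 log2 on those numbered 1.

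Labels number the arrays in each group. Deviations of same-numbered arrays correlated above 0.1 in every pair among the fetal groups (0.312 to 0.597), between adult DN2 and adult DN3 (0.119 to 0.424) and between adult DN2 and the fetal groups (0.125 to 0.374), but not in the other pairs of groups. The replicate number as a block was therefore an alternative beside centring of arrays, array weights (estimated gene by gene, since the default did not converge), a robust prior, other fold limits, the methods' one-way test, fits of 2 groups alone and leaving out each array.

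Promoter windows, up to the base before the start, are from RefSeq, build GRCm38.p6. No window was found for *Ccnd1*, *Ccnd2* and *Rb1* in the reference used. The number of arrays limits the precision.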

Additional observations from a re-analysis of the deposited data

Results flagged for a closer look

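The fetal minus adult difference changed between stages, by limma's interaction test over all 22626 probe sets with 3 arrays per group, for 4 of the genes. From ETP to DN2 it changed by -2.12 ± 0.41 log2 for *Ccnd3* (adjusted p = 0.0298), by -2.19 ± 0.44 log2 for *Cdkn2d* (adjusted p = 0.0368) and by -2.36 ± 0.50 log2 for *Cdkn1a* in 1424638_at (adjusted p = 0.0482). These were not called under 9, 12 and 19 of 24 alternatives, and all kept their direction. From DN2 to DN3 it changed by -3.30 ± 0.57 log2 for *Cdkn1a* in 1421679_a_at (adjusted p = 0.018, not called under 5 of 24 alternatives) and by 3.46 ± 0.57 log2 for *Cdkn2c* (adjusted p = 0.013, called under every alternative run).

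From ETP to DN3 the change was -2.51 ± 0.41 log2 for *Ccnd3* (adjusted p = 0.00425), -4.94 ± 0.57 log2 for *Cdkn1a* in 1421679_a_at (adjusted p = 0.000253) and -4.74 ± 0.50 log2 in 1424638_at (adjusted p = 1e-04), each called under every alternative run. For *Cdkn1a* the adult difference from ETP to DN3 was 3.84 and 3.70 log2 and the fetal one -1.09 and -1.04 log2, the latter not called (adjusted p = 0.177 and 0.124).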

How the results depend on the processing

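Of 49 called differences of the members in 12 comparisons, all 49 kept their direction under every alternative run and 31 were also called under each. With the arrays of 2 groups fitted alone, called probe sets fell from 5 to 3 between fetal and adult ETP (*Ccnd3* and *Cdkn2d* lost) and from 11 to 5 from adult ETP to DN2 (3 of *Ccnd2*, both of *Cdkn1a* and *Cdkn2c* lost). With array weights they rose from 3 to 5 from fetal ETP to DN2, from 4 to 8 from fetal ETP to DN3 and from 0 to 1, *Cdk6*, from adult DN2 to DN3. That count was also 1 without the replicates 1 of both DN2 groups, an alternative chosen after seeing the data. When probe sets were averaged by gene, 0 pathway genes in place of 1 were called between fetal and adult DN3, and over the 9 comparisons 12 of the 53 calls of pathway genes were lost (*Mycn* at 4 of them, *Mcm3* at 3, *Ccng1* at 2) and 8 were gained. The cause of these changes was not tested. The replicate block, fitted because numbers pair some groups, removed the call of *Ccnd2* 1448229_s_at from adult ETP to DN2 (adjusted p = 0.0581) and that of *Cdkn1a* 1424638_at for the change from ETP to DN2 (adjusted p = 0.0554). It added *Rb1* from adult ETP to DN3 and *Ccnd2* 1416122_at among the regulated, and changed no other call of a member.

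Leaving out 1 array, the called probe sets ranged from 3 to 6 between fetal and adult ETP, stayed at 1 in DN2 and ranged from 4 to 6 in DN3. They ranged from 10 to 12, 0 to 1 and 9 to 10 for adult ETP to DN2, DN2 to DN3 and ETP to DN3, and from 3 to 4, 1 to 3 and 4 to 5 for the fetal steps. Changes of the age difference ranged from 0 to 3 (ETP to DN2), from 1 to 3 (DN2 to DN3) and stayed at 3 (ETP to DN3). Regulated probe sets ranged from 10 to 13, with *Cdk6* and *Rb1* the members lost, and were 17 with array weights.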
